A study of Mus musculus with 6 samples.

Results

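The genes that make, break down and respond to cyclic AMP (cAMP) were measured by RNA sequencing in 3 cell populations sorted from adult mouse islets. They were taken as every row of the expression table whose symbol is Adcy, Pde, Prkac or Prkar with its number or letter, together with Rapgef3, Rapgef4, Creb1, Crem, Atf1, Crtc1, Crtc2 and Crtc3. This gave 51 of the 46959 rows. Of these, 37 reached at least 1 RPKM (reads scaled to the length of the gene and the total of the library) in at least 2 of the 6 libraries and are described, among 13367 genes of the whole table that did so. The 51 rows hold 10 adenylyl cyclases, 23 cyclic nucleotide phosphodiesterases, 3 genes that carry a Pde symbol without being such enzymes, 4 regulatory and 3 catalytic rows of protein kinase A (PKA), 2 Epac genes, 3 members of the CREB family and 3 CRTC coactivators. The last gene inside the level filter was Adcy5, with a second-highest library of 1.02 RPKM, and the first outside was Adcy8, with 0.962 RPKM.

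Immature beta cells were sorted as positive for mCherry alone, mature beta cells as positive for both mCherry and eGFP, and double negative cells as negative for both. All mice carried both reporters, Ins1-H2b-mCherry, a nuclear label driven by an insulin promoter, and Ucn3-eGFP, driven by the promoter of urocortin 3, a peptide of mature beta cells. The class of a cell therefore rests on the activity of both promoters. Each population has 2 libraries. Each replicate pooled the islets of 10 to 12 bitransgenic mice, which the design text calls female, whereas replicate 1 carries the sex label male and replicate 2 female. Islets were kept overnight in medium with 5.5 mM glucose before dissociation and sorting, and the mice are labelled adult with no age. Nothing states how separate the pools were, so the p-values below measure only the spread between these libraries.

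Depth differed between the populations: 2393841 and 3448925 reads were recovered from the RPKM steps of the immature libraries, against 22063867 to 26824385 in the other 4. A summed level of 10 beta cell markers was 73000 and 78120 RPKM in immature cells, 246600 and 263400 RPKM in mature cells and 4909 and 7223 RPKM in double negative cells. Endothelial, immune, mesenchymal and acinar marker lists each had their highest sums in the immature libraries. The 12 endothelial markers summed to 651 and 656 RPKM in immature cells, 5.06 and 4.20 RPKM in mature cells and 161 and 167 RPKM in double negative cells. For 11 immune markers the sums were 1679 and 1721 RPKM in immature cells, 61.7 and 62.4 RPKM in mature cells and 49.1 and 52.1 RPKM in double negative cells. The mature immune sums came mostly from Cd68, at 42.2 and 42.3 RPKM, and C1qa, at 15.9 and 16.45 RPKM. Of the 11 immune markers, 9 were lower in both mature than in both double negative libraries. For 11 mesenchymal markers the sums were 274 and 202 RPKM in immature cells, 0.619 and 0.762 RPKM in mature cells and 35.0 and 40.6 RPKM in double negative cells. In such sorted bulk samples, fewer cells of a type and less RNA per cell cannot be told apart.

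Adenylyl cyclases make cAMP from ATP when a hormone receptor activates the stimulatory G protein, and phosphodiesterases break it down. In beta cells cAMP amplifies glucose-stimulated insulin secretion, through PKA, which is released when cAMP binds its regulatory subunits, and through Epac, an exchange factor for the small G protein Rap. In the nucleus PKA acts on CREB, CREM and ATF1, which bind the cAMP response element and work with the CRTC coactivators.

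A cAMP response element is the site at which the pathway acts on genes, and the stretches in front of 3 members are shown for it: Prkar1a, the one member with a full element among the 39 whose windows were searched, Prkaca, its catalytic partner, and Adcy9, the cyclase highest in mature cells. Each is the 250 bases before a RefSeq start site, 5′ to 3′ on the gene's strand, build GRCm38.p6, with the motifs in capitals: the full palindrome TGACGTCA, or the shorter core TGACG, which reads CGTCA when it lies on the other strand.
Prkar1a, chr11:109650699-109650948, plus strand: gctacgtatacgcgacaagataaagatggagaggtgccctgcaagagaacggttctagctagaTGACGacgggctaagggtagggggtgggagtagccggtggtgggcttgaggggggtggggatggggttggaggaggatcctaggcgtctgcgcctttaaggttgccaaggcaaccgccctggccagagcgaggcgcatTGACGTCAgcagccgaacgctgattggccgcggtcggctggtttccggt
Prkaca, chr8:83972728-83972977, plus strand: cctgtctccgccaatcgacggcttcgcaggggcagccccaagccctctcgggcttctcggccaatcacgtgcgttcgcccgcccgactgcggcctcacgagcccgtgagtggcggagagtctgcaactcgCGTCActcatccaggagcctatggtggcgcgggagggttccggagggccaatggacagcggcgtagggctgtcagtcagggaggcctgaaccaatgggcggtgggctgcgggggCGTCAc
Adcy9, chr16:4420499-4420748, minus strand: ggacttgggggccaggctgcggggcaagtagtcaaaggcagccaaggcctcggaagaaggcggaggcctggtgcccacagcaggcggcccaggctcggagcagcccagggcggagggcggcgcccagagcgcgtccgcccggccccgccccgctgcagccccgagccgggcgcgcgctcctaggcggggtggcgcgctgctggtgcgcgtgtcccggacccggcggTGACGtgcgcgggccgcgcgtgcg
The full palindrome of Prkar1a lies at chr11:109650900-109650907, 49 to 42 bases before this start site. In the GENCODE annotation of the same build it is intronic in the transcripts Prkar1a-202, Prkar1a-203 and Prkar1a-204 and lies 21 bases in front of Prkar1a-201. RefSeq windows of 300 bases, from 250 before to 50 after a start, were available for 39 of the 51 members, 77 windows in all. Among these 39 members Prkar1a alone had a full palindrome, in 2 overlapping windows that share the same 8 bases (2.6% of the members' windows, against 1.79% of the 32851 windows in the RefSeq table). A core motif on either strand, counted also inside the palindrome, was in 18 member windows (23.4%, against 20.8% of the table's windows). Counted by gene, 16 of the 39 members had a core motif in at least 1 window (41.0%, against 23.0% of the table's 27025 genes), with more windows per gene among the members than in the table. These matches describe letters in a window and show no binding.

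Between immature and mature beta cells, the deposited values gave 5 of 6 cyclases and 9 of 14 phosphodiesterases called higher in immature cells, and 4 of 6 PKA genes called lower with none higher. Over all tested genes, 49.8% were called higher and 15.5% lower. The cyclase and phosphodiesterase counts include Adcy7, Pde3a and Pde4a. These passed the level filter through the immature libraries alone, so their higher level there follows from how they were chosen. After quantile normalization more of all genes were called lower than higher, with the counts given in the last section. In that setting 3 cyclases were higher and 2 lower, and 5 phosphodiesterases were higher and 5 lower. For the PKA genes, 4 were lower and none higher. Prkar1a, the regulatory subunit that held most PKA transcripts, was lower in immature cells by more than any other PKA gene, and Crem and Pde5a were lower as well. Adcy6, Adcy4, Adcy7, Pde2a, Pde4d, Pde4b and Rapgef3 were higher in immature cells. In limma's test on log2(RPKM + 1), with Benjamini-Hochberg adjustment over all 13367 genes at 0.05, 29 of the 37 described members passed, against 65.3% of all tested genes. Of these, 19 were higher in immature cells, where 49.8% of all genes were called higher, and 10 were lower, where 15.5% were called lower. The median difference was 0.22 over the described members and 0.29 over all genes. This overall shift depends on scaling: after median-ratio rescaling 13 members were higher and 17 lower, and after quantile normalization 10 were higher and 17 lower. More of all genes were also called lower than higher under both rescalings. Of the 29 called, 16 kept their call and direction under every alternative that could test them, 9 of them higher and 7 lower.

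**Figure D1:**
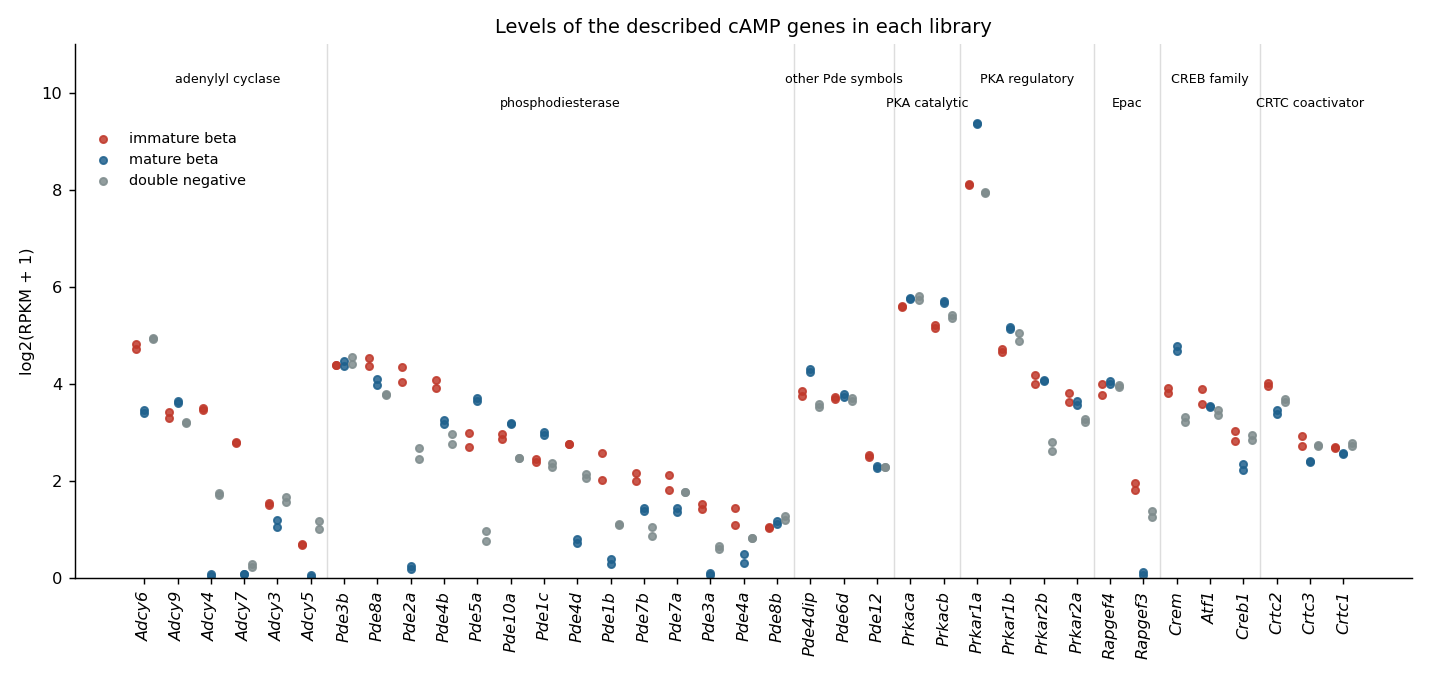
Level of each described cAMP gene in each library, as log2(RPKM + 1) on the vertical axis, with genes grouped by role on the horizontal axis. Each point is 1 library, immature in red, mature in blue and double negative in grey. Prkar1a stands highest in all 3 populations, with both mature libraries above the rest.

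**Figure D2:**
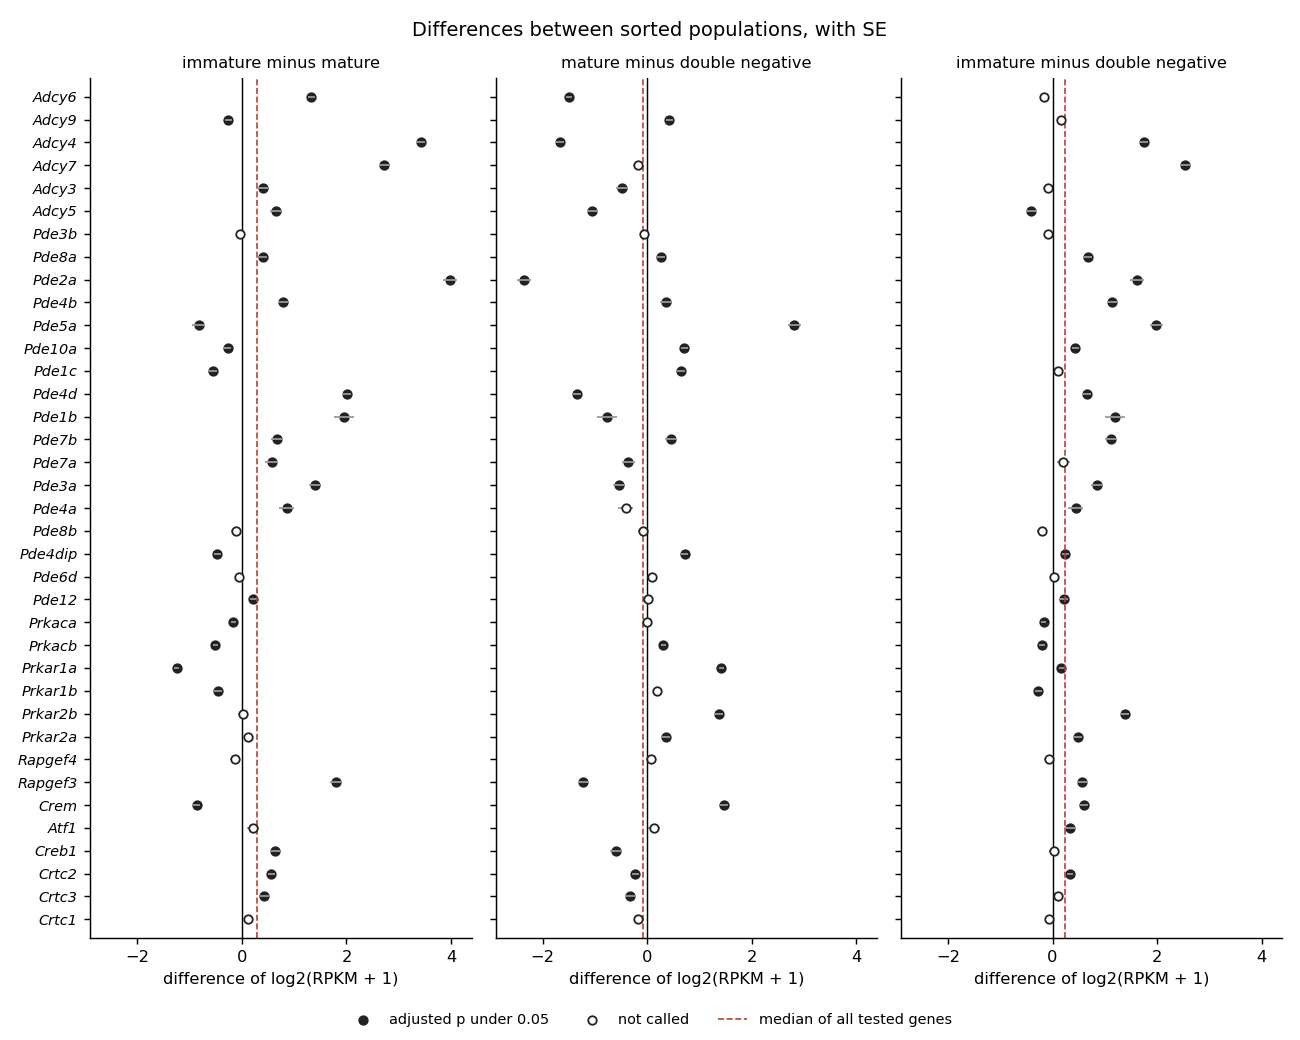
Difference of mean log2(RPKM + 1) for each described gene (horizontal axis, with SE) in the 3 comparisons, which share libraries. Filled points passed limma's adjusted 0.05 and open points did not, and the dashed line is the median of all tested genes. Immature minus mature values reach 3.98 for Pde2a and -1.25 for Prkar1a.

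Among the adenylyl cyclases, 6 of 10 were described, and 5 were higher and 1 lower in the immature than the mature population, where 49.8% of all genes were called higher and 15.5% lower. Adcy6, a cyclase that calcium inhibits, had 25.2 and 27.1 RPKM in immature cells, 10.1 and 9.58 RPKM in mature cells and 29.8 and 29.3 RPKM in double negative cells. Both mature libraries lay far below the other 4. Adcy6 was higher in the immature than the mature population by 1.33 on the log2 scale (SE 0.061, limma adjusted p = 1.8e-05) and lower in the mature than the double negative population with a log2 difference of -1.50 (adjusted p = 1.69e-05). The immature minus double negative difference was -0.17 (95% interval -0.32 to -0.02) and did not pass the test as deposited, but was -0.48 after median-ratio rescaling and -0.44 after quantile normalization, both called (limma adjusted p = 0.00196 and 0.00322).

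Adcy9, a widely expressed cyclase that responds little to forskolin, had 8.84 and 9.65 RPKM in immature cells, 11.5 and 11.1 RPKM in mature cells and 8.09 and 8.32 RPKM in double negative cells. The groups did not overlap, and the mature libraries were highest, the opposite order to Adcy6. The immature minus mature difference was -0.26 (limma adjusted p = 0.0162), which did not pass when either mature library was left out, and the mature minus double negative difference was 0.42 (adjusted p = 0.00337).

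Adcy4, a cyclase that G protein beta-gamma subunits stimulate, had 10.3 and 9.94 RPKM in immature cells, 0.0241 and 0.0533 RPKM in mature cells and 2.36 and 2.29 RPKM in double negative cells. Adcy7, a cyclase known best from blood cells, had 6.005 and 5.86 RPKM in immature cells, 0.0533 and 0.0648 RPKM in mature cells and 0.229 and 0.174 RPKM in double negative cells. Both were thus near zero in mature cells, and Adcy7 was near zero in double negative cells also. Their immature minus mature differences were 3.42 and 2.71 on the log2(RPKM + 1) scale, which understates changes of low genes (limma adjusted p = 2.19e-06 and 6.64e-06). Adcy7 passed the level filter through the immature libraries alone, so its higher level there follows from how it was chosen. Adcy3, which calmodulin regulates, and Adcy5, a close relative of Adcy6, stayed under 2.2 RPKM in every library. Both were higher in the immature than the mature population as deposited, by 0.41 for Adcy3 and 0.64 for Adcy5, with the sign reversed under quantile normalization. The exons of Adcy3 overlap those of Cenpo on the other strand over 22.1% of their length, and the kit is not stated to keep strand, so its reads are uncertain.

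Within a library, shares of the summed cyclase RPKM do not depend on scaling. Adcy9 held 16.5% and 17.2% of it in immature cells, 49.4% and 50.2% in mature cells and 17.7% and 18.5% in double negative cells. For Adcy6 the shares were 47.0% and 48.3% in immature cells, 43.4% and 43.2% in mature cells and 65.2% and 65.3% in double negative cells. The ratio of Adcy9 to Adcy6 was 0.353 ± 0.0035 in immature cells, 1.15 ± 0.017 in mature cells and 0.278 ± 0.0085 in double negative cells (SD, n = 2). Adcy9 was thus the more abundant of the pair in both mature libraries and the less abundant in the other 4. Adcy4 and Adcy7 made up 18.4% ± 1.0 and 10.8% ± 0.54 of cyclase RPKM in immature cells, against 0.172% ± 0.096 and 0.261% ± 0.044 in mature cells (SD, n = 2). Summed over the 10 cyclases, the level was 53.6 and 56.1 RPKM in immature cells, 23.2 and 22.2 RPKM in mature cells and 45.6 and 44.9 RPKM in double negative cells.

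**Figure D3:**
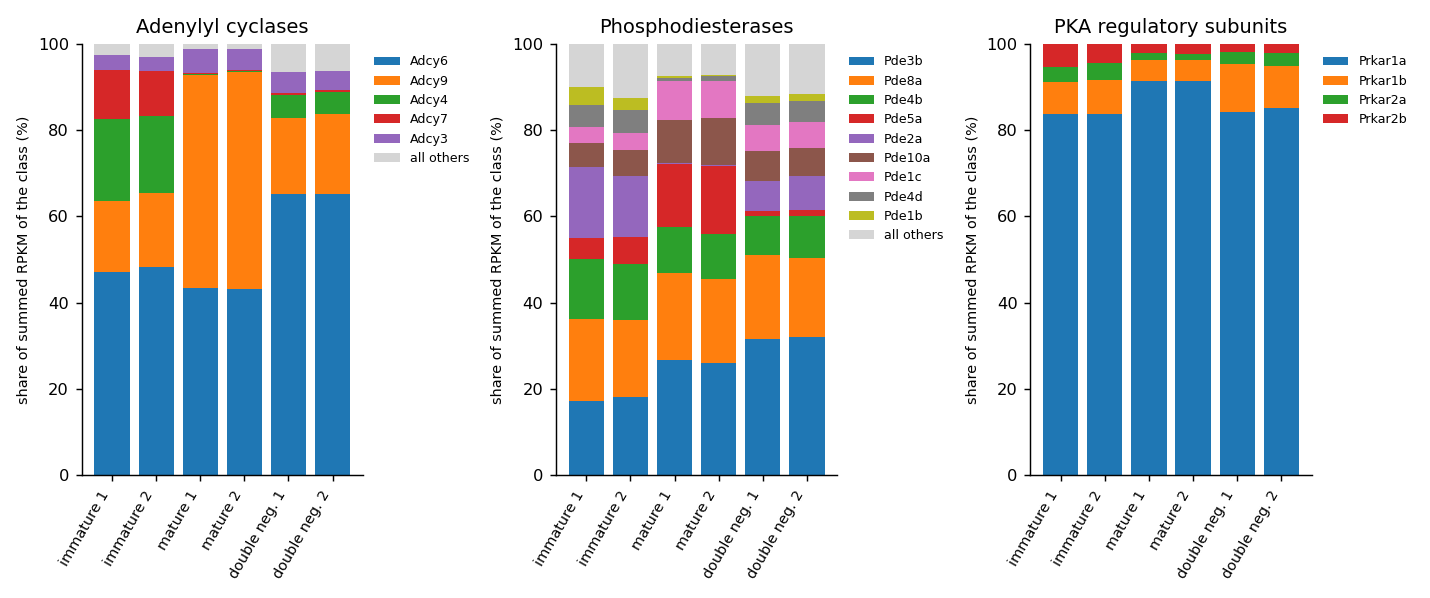
Share of the summed RPKM of adenylyl cyclases, phosphodiesterases and PKA regulatory subunits held by each gene in each library (vertical axis, percent), with libraries in the order immature, mature and double negative. Adcy9 takes 49.4% and 50.2% of cyclase RPKM in the mature libraries and no more than 18.5% in the others.

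Of the 23 cyclic nucleotide phosphodiesterases, 14 were described, and 9 were higher and 3 lower in the immature than the mature population, where 49.8% of all genes were called higher and 15.5% lower. Pde3b, an enzyme that insulin and leptin activate and that cGMP inhibits, was the most abundant of the class in mature and double negative cells. It had 20.04 and 19.8 RPKM in immature cells, 21.2 and 19.8 RPKM in mature cells and 20.3 and 22.4 RPKM in double negative cells. As deposited Pde3b passed the test in none of the 3 comparisons, and the 95% interval of its immature minus mature difference was -0.20 to 0.13 on the log2 scale. After rescaling it was called lower in immature than in mature cells, at -0.46 by median ratio and -0.24 by quantiles (limma adjusted p = 0.00103 and 0.0203), and lower than in double negative cells at -0.40 by each. Its share of phosphodiesterase RPKM was 17.7% ± 0.55 in immature cells, 26.3% ± 0.45 in mature cells and 31.8% ± 0.37 in double negative cells (SD, n = 2).

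The cAMP-specific enzymes were led by Pde8a, known for its high affinity for cAMP, with 22 and 19.6 RPKM in immature cells, 16.03 and 14.8 RPKM in mature cells and 12.6 and 12.8 RPKM in double negative cells. Its order followed immature, mature and double negative without overlap, but the immature minus mature difference of 0.41 (limma adjusted p = 0.00437) was -0.0115 after median-ratio rescaling. Pde4b had 15.98 and 14.2 RPKM in immature cells, 8.61 and 8.01 RPKM in mature cells and 5.82 and 6.81 RPKM in double negative cells. Pde4d, which like Pde4b is inhibited by rolipram, had 5.78 and 5.80 RPKM in immature cells, 0.646 and 0.736 RPKM in mature cells and 3.20 and 3.41 RPKM in double negative cells. These Pde4 genes differ in their order: mature cells were lowest for Pde4d, whereas double negative cells were lowest for Pde4b. Pde4b was higher in the immature than the mature population by 0.79 (limma adjusted p = 0.000898) and Pde4d by 2.005 (adjusted p = 1.35e-05). Pde4d was lower in the mature than the double negative population with a log2 difference of -1.35, and Pde4b was higher by 0.35, a call lost without either mature library.

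Pde2a, which breaks down both cAMP and cGMP and is activated by cGMP, had 19.3 and 15.5 RPKM in immature cells, 0.140 and 0.185 RPKM in mature cells and 4.49 and 5.42 RPKM in double negative cells. It was nearly absent from the mature libraries and intermediate in double negative ones. The immature minus mature difference was 3.98 (SE 0.13, limma adjusted p = 6.15e-06). A second gene model on the same strand, Gm45837, overlaps 64.3% of Pde2a's exons in GENCODE and could share its reads. Pde10a, another enzyme for both nucleotides, had 6.27 and 6.77 RPKM in immature cells, 8.04 and 8.13 RPKM in mature cells and 4.58 and 4.54 RPKM in double negative cells. Pde1c, which calcium and calmodulin activate, had 4.46 and 4.23 RPKM in immature cells, 7.03 and 6.69 RPKM in mature cells and 3.86 and 4.14 RPKM in double negative cells. The mature libraries were highest for both. Pde1c was lower in the immature than the mature population with a log2 difference of -0.56 (limma adjusted p = 0.00136) and Pde10a with a log2 difference of -0.27 (adjusted p = 0.016), of which the Pde10a call was lost without either mature library.

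Pde5a, the cGMP-specific enzyme that sildenafil inhibits, had 5.52 and 6.93 RPKM in immature cells, 11.6 and 11.99 RPKM in mature cells and 0.687 and 0.949 RPKM in double negative cells. Every library of a group stood apart from those of the others, with double negative cells under 1 RPKM. Pde5a was lower in the immature than the mature population with a log2 difference of -0.83 (SE 0.13, limma adjusted p = 0.00195). It was higher in the mature than the double negative population by 2.82 (adjusted p = 2.24e-05) and in immature than in double negative cells by 1.99 (adjusted p = 0.000108). The cGMP-specific genes together held 6.10% ± 1.7 of phosphodiesterase RPKM in immature cells, 15.6% ± 0.97 in mature cells and 3.11% ± 0.034 in double negative cells (SD, n = 2).

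Pde1b, Pde3a, Pde4a, Pde7a, Pde7b and Pde8b stayed at 4.95 RPKM or less in every library. All but Pde8b were called higher in the immature than the mature population, with Pde1b at 1.96 and Pde3a at 1.39. Pde3a and Pde4a passed the level filter through the immature libraries alone, so their higher level there follows from how they were chosen. The sign of Pde4a, Pde7a and Pde7b reversed under quantile normalization. Pde8b, at 1.42 RPKM or less in every library, was called in no comparison as deposited. After rescaling it was called lower in immature than in mature cells, at -0.34 by median ratio and -1.015 by quantiles (limma adjusted p = 0.0186 and 0.000537). It was also called lower in immature than in double negative cells, at -0.36 and -0.77. The high value of Pde1b in the first immature library, 4.95 RPKM against 3.04 RPKM in the second, gave it the largest replicate difference of these genes.

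The 3 other genes with Pde symbols behaved differently from each other. Pde4dip encodes myomegalin, a centrosome and Golgi protein that anchors a phosphodiesterase, and had 13.5 and 12.4 RPKM in immature cells, 18.7 and 17.9 RPKM in mature cells and 10.5 and 11.04 RPKM in double negative cells. It was lower in the immature than the mature population with a log2 difference of -0.47 (limma adjusted p = 0.00145). Pde6d, a carrier of lipid-modified proteins, lay between 11.5 and 12.9 RPKM over the 6 libraries and passed in no comparison as deposited, while its immature minus mature difference was called at -0.47 after median-ratio rescaling and -0.37 after quantile normalization. Pde12, a mitochondrial RNA-processing enzyme, lay between 3.81 and 4.76 RPKM, shares exonic bases with the abundant Arf4 on the other strand, and changed sign between immature and mature cells under both rescalings, with its call lost under the replicate block (limma adjusted p = 0.0812).

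Among the PKA genes, 4 regulatory and 2 catalytic subunits were described, and none was called higher in the immature than the mature population. Prkar1a, the type I-alpha regulatory subunit, had 273 and 278 RPKM in immature cells, 662 and 649 RPKM in mature cells and 243 and 246 RPKM in double negative cells. The mature libraries lay far above the other 4, and no groups overlapped. Prkar1a was lower in the immature than the mature population with a log2 difference of -1.25 (SE 0.048, limma adjusted p = 9.54e-06) and higher in the mature than the double negative population by 1.42 (SE 0.048, adjusted p = 1.04e-05). Over the alternatives the immature minus mature value ran between -1.80 and -1.23. The small excess in immature over double negative cells, 0.17 (limma adjusted p = 0.0254), was lost with the replicate block (adjusted p = 0.0511) and changed sign under both rescalings, to -0.15 and -0.31. Its exons overlap no other annotated gene, and its value rests on 2821 and 4138 recovered reads in the immature libraries, against 67873 and 75202 in the mature ones.

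Prkar1b, the neuronal type I subunit, had 24.1 and 25.5 RPKM in immature cells, 33.9 and 35.1 RPKM in mature cells and 31.96 and 28.3 RPKM in double negative cells. It was lower in the immature than the mature population with a log2 difference of -0.46 (limma adjusted p = 0.00227). Mature and double negative cells were not called different, with a 95% interval of 0.01 to 0.37. Prkar2b, the type II-beta subunit of neuroendocrine tissue and fat, had 17.2 and 14.9 RPKM in immature cells, 15.9 and 15.8 RPKM in mature cells and 5.17 and 5.94 RPKM in double negative cells. Both beta cell populations were thus above double negative cells, by 1.38 for immature and 1.36 for mature cells (limma adjusted p = 0.00013 and 0.000101), while the beta cell populations overlapped each other. Prkar2a, the ubiquitous type II-alpha subunit, had 11.4 and 13.1 RPKM in immature cells, 11.5 and 10.8 RPKM in mature cells and 8.29 and 8.65 RPKM in double negative cells. As deposited, neither Prkar2b nor Prkar2a was called between immature and mature cells. Median-ratio rescaling called both lower in immature cells, at -0.40 and -0.29 (limma adjusted p = 0.00633 and 0.0268), whereas quantile normalization called neither. The ratio of Prkar2b to Prkar2a was 1.32 ± 0.26 in immature cells, 1.42 ± 0.054 in mature cells and 0.655 ± 0.044 in double negative cells (SD, n = 2).

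Prkaca, the main catalytic subunit, had 47.7 and 47.04 RPKM in immature cells, 53.8 and 52.7 RPKM in mature cells and 55.01 and 51.8 RPKM in double negative cells. Prkacb, the second catalytic subunit, had 35.95 and 34.7 RPKM in immature cells, 51.5 and 49.8 RPKM in mature cells and 39.9 and 41.6 RPKM in double negative cells. Immature libraries were lowest for both. Prkacb was lower in the immature than the mature population with a log2 difference of -0.51 (limma adjusted p = 0.000372), while the difference of -0.17 for Prkaca (adjusted p = 0.0309) was lost without either mature library. The summed RPKM of regulatory over catalytic subunits was 3.89 and 4.05 in immature cells, 6.87 and 6.93 in mature cells and 3.04 and 3.09 in double negative cells. The mature ratio lay apart from the others in both libraries, and it is a ratio of transcripts, independent of library scaling. Prkar1a made up 83.8% ± 0.021 of regulatory RPKM in immature cells, 91.4% ± 0.15 in mature cells and 84.7% ± 0.63 in double negative cells (SD, n = 2).

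**Figure D4:**
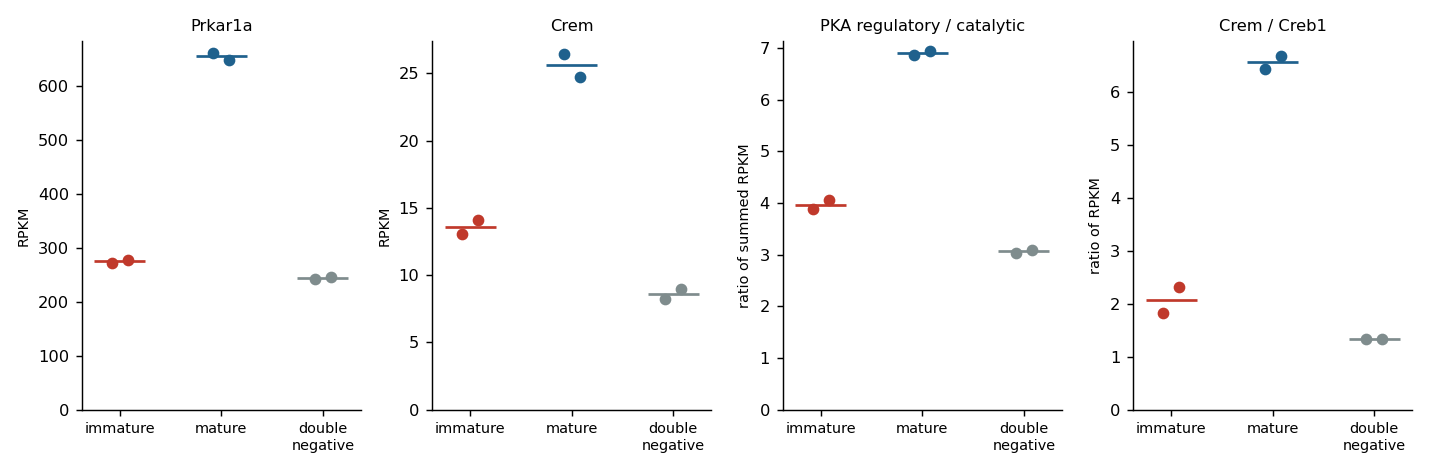
RPKM of Prkar1a and Crem, the ratio of summed RPKM of PKA regulatory over catalytic subunits, and the ratio of Crem to Creb1 (vertical axes from 0), for immature, mature and double negative cells. Points are libraries and lines are group means of 2 libraries. In all 4 panels both mature libraries lie above all others, with a regulatory to catalytic ratio of 6.87 and 6.93.

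Rapgef4, which encodes Epac2, the Epac protein of beta cell granule release, had 15.02 and 12.7 RPKM in immature cells, 15.7 and 14.9 RPKM in mature cells and 14.3 and 14.8 RPKM in double negative cells. As deposited no comparison passed the test, and the 95% interval of the immature minus mature difference was -0.35 to 0.08. After rescaling Rapgef4 was called lower in immature than in mature cells, at -0.55 by median ratio and -0.42 by quantiles (limma adjusted p = 0.00114 and 0.00648), and lower than in double negative cells at -0.37 and -0.38. Rapgef3, which encodes Epac1, had 2.90 and 2.52 RPKM in immature cells, 0.0466 and 0.0883 RPKM in mature cells and 1.39 and 1.60 RPKM in double negative cells. In mature cells it rested on 7 and 15 recovered reads. Rapgef3 was higher in the immature than the mature population by 1.79 (limma adjusted p = 5.01e-05) and lower in the mature than the double negative population with a log2 difference of -1.22 (adjusted p = 0.000282). It held 16.4% ± 0.23 of Epac RPKM in immature cells, 0.444% ± 0.21 in mature cells and 9.29% ± 0.61 in double negative cells (SD, n = 2).

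In the CREB family, Crem, whose products include activators and the inducible repressor ICER, had 13.04 and 14.1 RPKM in immature cells, 26.5 and 24.7 RPKM in mature cells and 8.24 and 8.96 RPKM in double negative cells. Creb1, the founding member, had 7.11 and 6.10 RPKM in immature cells, 4.12 and 3.70 RPKM in mature cells and 6.18 and 6.75 RPKM in double negative cells. Mature libraries were highest for Crem and lowest for Creb1, while immature and double negative libraries overlapped for Creb1. Crem was lower in the immature than the mature population with a log2 difference of -0.87 (SE 0.073, limma adjusted p = 0.000184) and higher in the mature than the double negative population by 1.47 (adjusted p = 3.36e-05). For Creb1 the immature minus mature difference was 0.63 (limma adjusted p = 0.00235), which was 0.0746 and not called under quantile normalization, and the mature minus double negative difference was -0.60 (adjusted p = 0.00349). The ratio of Crem to Creb1 was 1.83 and 2.31 in immature cells, 6.43 and 6.68 in mature cells and 1.33 and 1.33 in double negative cells. Gene-level values do not separate the activator and repressor transcripts of Crem.

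Atf1, the third family member, had 13.9 and 10.99 RPKM in immature cells, 10.4 and 10.7 RPKM in mature cells and 9.94 and 9.27 RPKM in double negative cells, and was not called between immature and mature cells (95% interval -0.07 to 0.49). Crtc2, the coactivator that calcineurin and salt-inducible kinases control in islets, had 15.1 and 14.5 RPKM in immature cells, 9.45 and 10.02 RPKM in mature cells and 11.8 and 11.3 RPKM in double negative cells. It was lowest in mature cells, with an immature minus mature difference of 0.56 (limma adjusted p = 6e-04) that was not called after median-ratio rescaling. Crtc3 had 5.60 and 6.59 RPKM in immature cells, 4.29 and 4.22 RPKM in mature cells and 5.65 and 5.57 RPKM in double negative cells, a difference of 0.43 between immature and mature cells whose sign reversed under quantile normalization. Crtc1 had 5.49 and 5.45 RPKM in immature cells, 4.99 and 4.91 RPKM in mature cells and 5.88 and 5.63 RPKM in double negative cells and was called in no comparison as deposited. Rescaling turned its immature minus mature difference to -0.25 by median ratio and -0.42 by quantiles.

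Between mature and double negative cells, 26 of the 37 members passed the test, against 54.3% of all tested genes. Of these, 13 were higher in mature cells (23.1% of all genes were) and 13 lower (31.2% of all genes were). The median difference was -0.003 over the members and -0.08 over all genes. Higher in mature cells were 3 of 4 PKA regulatory subunits, Prkacb, Crem, Adcy9, Pde4dip and 6 phosphodiesterases, led by Pde5a. Lower were 4 of 6 cyclases, 5 phosphodiesterases, Rapgef3, Creb1, Crtc2 and Crtc3. Among these cyclases, Adcy5 passed the level filter through the double negative libraries alone, so its higher level there follows from how it was chosen. In 15 of the 26 the call held in every alternative that could test it, and no call changed sign. With the replicate block the calls of Crtc2 and Pde7a were lost (limma adjusted p = 0.0527 and 0.0716).

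Between immature and double negative cells, 25 members passed, against 56.6% of all tested genes, with 21 higher in immature cells (45.9% of all genes) and 4 lower (10.6%). Adcy7, Pde3a and Pde4a, among the 21, passed the level filter through the immature libraries alone. Their higher level there follows from how they were chosen. The 4 lower genes were Adcy5, Prkaca, Prkacb and Prkar1b. Adcy5 passed the level filter through the double negative libraries alone, so its higher level there follows from how it was chosen. None of the 4 kept its call in every alternative. Prkar2b, Pde5a, Crem, Pde4b, Pde8a and Pde7b were among the 12 higher genes that did. Adcy7 and Pde3a, with the limit of the level filter, were also among these 12. The members' median difference was 0.24, the same as over all genes. Quantile normalization gave 12 members higher and 14 lower, with no all-gene split given for that setting. With the replicate block the calls of Pde12, Pde4a and Prkar1a were lost (limma adjusted p = 0.0852, 0.0696 and 0.0511). The 3 comparisons share libraries, so they are not independent of one another.

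In all, 9 described members were under 1 RPKM in both mature libraries: Pde2a, Adcy4, Adcy7, Pde4d, Pde1b, Rapgef3, Pde3a, Pde4a and Adcy5. Each had passed the level filter through another population, so a higher level elsewhere follows from how they were chosen. Adcy7, Pde3a and Pde4a reached 1 RPKM in the immature libraries alone, and Adcy5 in the double negative libraries alone. Markers of most other cell types also had higher levels in immature than in mature cells. Of 12 endothelial markers 12 were higher in the immature than the mature population, and Cdh5, the endothelial cadherin, had 125 and 125 RPKM in immature cells, 0.497 and 0.262 RPKM in mature cells and 31.1 and 30.7 RPKM in double negative cells. Of 11 immune markers 11 were higher, and Tyrobp, a signalling adaptor of myeloid cells, had 116 and 100.2 RPKM in immature cells, 0.149 RPKM and a listed 0 in mature cells and 1.29 and 1.48 RPKM in double negative cells. Of 11 mesenchymal markers 10 were called higher, as were 10 of 10 alpha cell, 5 of 5 delta cell, 3 of 3 PP cell and 12 of 12 acinar markers. Of 7 ductal markers 4 were called higher and 2 lower, and the ductal list summed to 462 and 501 RPKM in immature cells, 907 and 978 RPKM in mature cells and 849.8 and 856 RPKM in double negative cells, mostly from Spp1. Alpha cell markers summed to 29260 and 19930 RPKM in immature cells, 701 and 906 RPKM in mature cells and 178500 and 172000 RPKM in double negative cells, and acinar markers to 9838 and 30690 RPKM in immature cells, 194 and 136 RPKM in mature cells and 297 and 2389 RPKM in double negative cells. Of the endothelial, immune and mesenchymal markers, Cldn5 was listed at 0 in both mature libraries and Ptprc, Tyrobp, Acta2 and Lum in 1 of them each. Adcy7 was low in double negative cells, as the immune sums were. Adcy4, Pde2a, Pde4d, Rapgef3, Pde1b, Pde3a and Pde4a were intermediate there, as the endothelial, mesenchymal and acinar sums all were. Adcy5 was highest there, as the alpha cell sums were. These patterns thus assign no gene to a cell type. The part of these other cells in the differences of the cAMP genes was not tested.

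**Figure D5:**
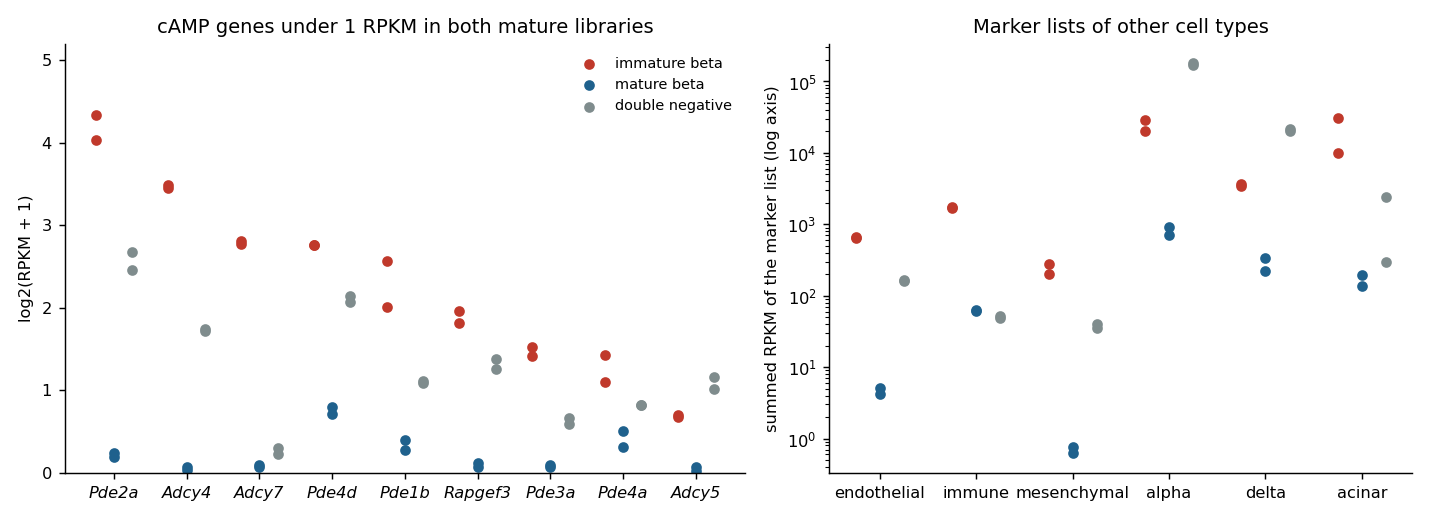
Left, log2(RPKM + 1) of the 9 described cAMP genes under 1 RPKM in both mature libraries; right, summed RPKM of marker lists of other cell types on a log axis. Points are libraries, immature in red, mature in blue and double negative in grey. The endothelial sums are 651 and 656 RPKM in immature libraries and 5.06 and 4.20 RPKM in mature libraries.

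The 14 rows below the level filter were Adcy1, Adcy2, Adcy8, Adcy10, Pde1a, Pde4c, Pde6a, Pde6b, Pde6c, Pde6g, Pde6h, Pde9a, Pde11a and the pseudogene Prkaca-ps1. Adcy8, a calcium-stimulated cyclase studied in beta cells, had 1.12 and 0.962 RPKM in double negative cells and no more than 0.332 RPKM in the 4 beta cell libraries. Pde1a had 0.903 and 1.11 RPKM in immature cells, 0.0210 RPKM and a listed 0 in mature cells and 0.203 and 0.446 RPKM in double negative cells. The 5 Pde6 genes among these rows, whose best-known role is in photoreceptors, stayed under 0.4 RPKM, and Prkaca-ps1 was listed at 0 throughout.

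The receptors and proteins around the pathway were counted from gene lists, without a test of any list, and each count between immature and mature cells stands against 49.8% of all genes called higher and 15.5% called lower. Of 13 tested receptors coupled to the stimulatory G protein, 8 were higher and 1 lower in the immature than the mature population (69.2% called, against 65.3% of all genes). The incretin receptor Glp1r had 55.6 and 66.02 RPKM in immature cells, 73.7 and 75.99 RPKM in mature cells and 6.52 and 7.97 RPKM in double negative cells, and did not pass between immature and mature cells (difference -0.30, limma adjusted p = 0.0587). The other incretin receptor, Gipr, had 16.9 and 17.7 RPKM in immature cells, 8.19 and 7.43 RPKM in mature cells and 4.06 and 4.52 RPKM in double negative cells, higher in the immature than the mature population by 1.06 (adjusted p = 0.00013). Both mature libraries were highest for Glp1r and both immature libraries for Gipr. The glucagon receptor Gcgr had 3.51 and 2.99 RPKM in immature cells, 3.30 and 3.23 RPKM in mature cells and 0.294 and 0.537 RPKM in double negative cells. Calcrl, Ptgir and Gpr119 were higher in immature than in mature cells, by 2.62, 2.04 and 1.62. Of these, Gpr119 was highest in double negative cells, at 22.75 and 23.87 RPKM, against 8.29 and 4.86 RPKM in immature cells.

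Of 10 tested receptors coupled to the inhibitory G protein, 5 were higher and 4 lower in the immature than the mature population (90% called, against 65.3% of all genes). Adra2a, the adrenergic receptor that inhibits insulin release, had 17.5 and 22.7 RPKM in immature cells, 63.8 and 63.4 RPKM in mature cells and 2.91 and 3.46 RPKM in double negative cells. It was lower in the immature than the mature population with a log2 difference of -1.62 (limma adjusted p = 0.000151). The somatostatin receptors Sstr2 and Sstr1 and the prostaglandin receptor Ptger3 were higher in immature than in mature cells, by 1.92, 1.72 and 1.70, from mature levels under 0.2 RPKM. Double negative means were higher still for Sstr2 and Sstr1, 15.1 and 4.46 RPKM against 3.36 and 2.49 RPKM in immature cells. For Ptger3 the double negative mean was lower, 0.560 against 2.36 RPKM. Among 7 G protein alpha subunits, 3 were higher and 1 lower. Gnai1 had 16.5 and 12.5 RPKM in immature cells, 1.01 and 1.14 RPKM in mature cells and 33.03 and 33.5 RPKM in double negative cells, while Gnai3 was lower in the immature than the mature population with a log2 difference of -0.40 and Gnao1 was higher by 0.19. Gnas, the stimulatory alpha subunit, had 10.5 and 9.75 RPKM in immature cells, 6.04 and 6.03 RPKM in mature cells and 32.9 and 25.9 RPKM in double negative cells, values that are uncertain because exons of Nespas and Gm20721 overlap it on the other strand.

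Of 11 tested A-kinase anchoring proteins, which hold PKA at its sites of action, 7 were higher and 3 lower in the immature than the mature population (90.9% called, against 65.3% of all genes). Akap12 was higher by 2.87, Akap8 by 1.16, Akap8l by 0.99 and Ezr, the membrane linker ezrin, by 0.62. Akap11 had 23.6 and 22.9 RPKM in immature cells, 31.98 and 30.3 RPKM in mature cells and 19.1 and 21.7 RPKM in double negative cells. Akap13 had 21.8 and 21.8 RPKM in immature cells, 28.1 and 28.03 RPKM in mature cells and 9.38 and 9.63 RPKM in double negative cells. Both were lower in the immature than the mature population, like Prkar1a. The 3 PKA inhibitor peptides were all higher in the immature than the mature population. Pkia had 8.76 and 11.1 RPKM in immature cells, against 5.27 and 5.61 RPKM in mature cells (difference 0.75), and Pkib had 1.03 and 1.23 RPKM in immature cells, against 0.482 and 0.490 RPKM in mature cells (difference 0.52).

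Of 5 tested Epac partners, 1 was higher in immature cells, Abcc8, the sulphonylurea receptor, by 0.45 (limma adjusted p = 0.000507). Rims2, which binds Epac2 at release sites, had 6.71 and 7.24 RPKM in immature cells, 7.06 and 6.27 RPKM in mature cells and 10.3 and 10.8 RPKM in double negative cells. Of 9 regulators of CREB and CRTC, 4 were higher and none lower in the immature than the mature population (44.4% called, against 65.3% of all genes): the acetyltransferases Crebbp at 1.06 and Ep300 at 0.72, and the calcineurin catalytic subunits Ppp3ca at 1.05 and Ppp3cc at 0.33. Sik1, a kinase that holds CRTC proteins in the cytoplasm and is itself a CREB target, had 15.7 and 14.5 RPKM in immature cells, 15.1 and 14.6 RPKM in mature cells and 8.66 and 8.61 RPKM in double negative cells.

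Of 14 tested CREB target genes, 5 were higher and 4 lower in the immature than the mature population (64.3% called, against 65.3% of all genes), and 9 were higher and 3 lower in the mature than the double negative population (85.7% called, against 54.3%). Nr4a2, a nuclear receptor, had 10.8 and 9.07 RPKM in immature cells, 29.2 and 27.7 RPKM in mature cells and 8.14 and 7.01 RPKM in double negative cells. Irs2, the insulin receptor substrate, had 12.2 and 14.6 RPKM in immature cells, 25.2 and 24.5 RPKM in mature cells and 13.9 and 12.1 RPKM in double negative cells. Both were lower in the immature than the mature population, with log2 differences of -1.43 and -0.84 (limma adjusted p = 0.000108 and 0.000785). Dusp1, a phosphatase of MAP kinases, and Fosb, a transcription factor of immediate early response, were higher in immature cells by 1.60 and 0.97.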

How the data were processed

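Sorted cells were lysed in Trizol and sequenced from a TruSeq RNA v2 preparation, per the labels' protocols. One table of RPKM values, with 1 column per library, is what the authors deposited. The submitters' processing notes list STAR 2.5, featureCounts, edgeR 3.14.0 and the build GRCm38.p4, and nothing further on settings is used here. Because RPKM is relative to the library total, a few abundant hormone genes lower the values of all others.

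The test was limma 3.58.1 (R 4.3.3) on log2(RPKM + 1), for genes with at least 1 RPKM in at least 2 of 6 libraries. All 6 libraries entered one model of group means, with a prior variance that follows the mean level and 3 residual degrees of freedom. P-values were adjusted by Benjamini-Hochberg over 13367 genes and read at 0.05, and intervals are two-sided at the 95% level. Reads were recovered from the RPKM steps with exonic lengths of GENCODE M21 on GRCm38, and came out whole within 0.02 reads in every library for 78.1% of matched genes above 0. Alternatives changed the pseudocount, filter, scaling, variance trend, libraries, model (limma voom on recovered reads) and replicate block. The main model holds no block or pairing. For the replicate block alone, same-numbered libraries were taken as paired, since the design text has the populations sorted from the same islets. The numbers also share a sex label, so the block cannot tell pool from sex. Replicate deviations of same-numbered libraries correlated at -0.009 (immature and mature), 0.14 (immature and double negative) and -0.11 (mature and double negative). The procedure was also run on simulated data with equal added noise in every library. Replicate spread here differed between the populations, so nothing is concluded from that run.

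The members and the gene lists were chosen with earlier results of these data known. Described members with a group mean of at least 5 RPKM have the value of every library given, and the others a range. Of each list around the pathway, up to 4 called genes with the largest immature minus mature difference are named, plus Glp1r, Gipr, Gcgr, Gnas, Pkia, Pkib, Sik1, Rims2 and Akap genes above 20 RPKM. One gene that this rule names is not reported here. Of the marker genes, Cdh5 and Tyrobp are named, with those listed at 0 and those that made up most of an immune or ductal sum.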

Additional observations from a re-analysis of the deposited data

How the results depend on the processing

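Direction between immature and mature cells depended on scaling, because the median of all genes moved from 0.29 as deposited to -0.07 after median-ratio rescaling and -0.17 after quantile normalization. Median-ratio rescaling turned the immature minus mature difference to -0.25 for Crtc1, -0.14 for Pde12, -0.0115 for Pde8a, -0.29 for Prkar2a and -0.40 for Prkar2b. Quantile normalization turned it to -0.42 for Adcy3, -0.14 for Adcy5, -0.42 for Crtc1, -0.12 for Crtc3, -0.40 for Pde12, -0.12 for Pde4a, -0.20 for Pde7a and -0.10 for Pde7b. Against double negative cells, the immature difference became -0.0333 for Pde12, -0.0556 for Pde4dip, -0.26 for Pde6d and -0.15 for Prkar1a after median-ratio rescaling. After quantile normalization it became -0.36 for Creb1, -0.21 for Pde12, -0.34 for Pde1c, -0.0403 for Pde4a, -0.0621 for Pde4dip, -0.29 for Pde6d and -0.31 for Prkar1a. All genes split into 6655 higher and 2073 lower for immature against mature cells as deposited, 4099 and 4978 after median-ratio rescaling and 3122 and 5359 after quantile normalization. For immature against double negative cells, members split into 21 and 4 as deposited, where all genes split into 6142 and 1421. Members split into 13 and 11 after median-ratio rescaling and 12 and 14 after quantile normalization. The all-gene split of this comparison is not given for the rescaled values, so these counts do not set the members apart from all genes.

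With limma voom on recovered reads, which could test 27 members and 8996 genes, 19 members and 5634 genes were called for immature against mature and 16 members and 4826 genes for immature against double negative cells. Limma-trend on the same genes, added after the data were seen, called 4765 genes for mature against double negative cells, fewer genes being tested. Using only the 4 libraries compared left 16 members for immature against double negative cells, with no count over all genes given for that setting. Leaving out each library in turn gave 22 to 30 members and 6335 to 9810 genes for immature against mature, 16 to 29 members and 4767 to 8982 genes for mature against double negative, and 16 to 24 members and 5060 to 8848 genes for immature against double negative cells. Without mature replicate 1 or 2 the mature against double negative count was 17 and 16 members, and the immature against double negative count 16 each, a lone library being assumed to vary like the other groups. The cause was not tested.

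With the replicate block, which pairs the libraries of one pool, 28, 24 and 22 members and 8407, 6803 and 7073 genes were called in the 3 comparisons, in the order immature against mature, mature against double negative and immature against double negative. Apart from the 6 calls of members given as lost with it, the block changed no member's call. The immature libraries had the fewest recovered reads, and their replicates differed with an SD of 0.393 on the log2 scale, against 0.132 for mature and 0.222 for double negative cells. They also differed in summed acinar markers, and the part of depth in this spread was not tested.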
